A study of Mus musculus with 12 samples.

Results

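Transcripts of complement and coagulation proteins that the liver secretes were followed in mouse livers under chemical stress of the endoplasmic reticulum (ER), the compartment in which secreted proteins fold and receive their sugar chains. The 37 genes were listed by name, 17 of complement and 20 of coagulation and fibrinolysis, and each was found in the gene column of the deposited expression table, which holds 27109 loci, 23951 of them with a gene name. The rule uses no measured value, but the list was drawn up with earlier results of these data known. The livers came from C57BL/6 mice with a liver-specific deletion of Atf4 (labelled LsATF4-KO, here knockout) or from wild-type mice. Atf4 encodes a transcription factor that cells make when the ER is stressed. The mice were injected intraperitoneally with tunicamycin (1 mg/kg), an antibiotic that stops N-linked glycosylation, or with 0.3% DMSO as the solvent control, and the exposure lasted 6 h. Each of the 4 groups (knockout with tunicamycin, knockout with DMSO, wild type with tunicamycin, wild type with DMSO) had 3 libraries, 12 in all, of poly(A) RNA. The sources used here give neither the driver of the deletion nor the age and sex of the mice, and no label says whether the 3 libraries of a group came from separate mice.

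The liver is the main source of plasma complement and of most clotting factors. In complement, sugar-binding lectins or antibodies start a chain of proteases that cleaves C3 and ends in a pore, the membrane attack complex. In coagulation, proteases that carry a vitamin K-dependent modification act in sequence to make thrombin, which turns fibrinogen into fibrin, and plasmin dissolves the clot. All of these secreted proteins pass through the ER and many carry N-linked glycans, which are added at the sequon asparagine, any residue but proline, then serine or threonine. Tunicamycin inhibits the enzyme encoded by Dpagt1, which makes the earliest lipid-linked sugar of that pathway.

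Levels are in FPKM (fragments scaled for transcript length and sequencing yield), with 1 value per locus and group in which the authors pooled the 3 libraries. The depth per library is unknown and no SD over libraries can be stated. Lane 5 held the 3 libraries of knockout livers with DMSO and lane 4 the other 9, and for each comparison with that group lane and group cannot be told apart. A call needed a deposited q, the p-value adjusted over all tests of the table, under 0.05, and higher, lower, rose and fell refer only to such calls. Standard errors (SE) of log2 fold changes were derived from the deposited test statistics. The locus that holds Atf4, merged with the calcium channel gene Cacna1i, stood at 114 FPKM in knockout against 356 in wild-type livers with tunicamycin, and at 22.8 in knockout against 46.9 in wild-type livers with DMSO. Albumin is listed at 0 in all 4 groups because its locus was marked as holding too many fragments to be quantified, so it adds nothing to the sums that follow. Hepatocyte markers dominated every group: the 11 genes of that list, albumin included, summed to 17543 FPKM in knockout livers with tunicamycin, 33347 in knockout livers with DMSO, 21326 in wild-type livers with tunicamycin and 42760.5 in wild-type livers with DMSO. The knockout tunicamycin group also held RNA of other tissues. Its 10 adrenal markers summed to 1342 FPKM, against 6.78 in knockout livers with DMSO, 23.6 in wild-type livers with tunicamycin and 9.27 in wild-type livers with DMSO, and its 9 muscle markers to 327 FPKM, against 1.98, 4.77 and 1.72 FPKM in the same 3 groups. The part of this RNA in the members' values was not tested.

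Promoter sequence near the start site is shown for F7 and F9, which hold the core letters of a site of a hepatocyte transcription factor, so that the letters can be set beside the values. RefSeq promoters (mouse build GRCm38.p6, 250 bases before to 50 after the start) were matched to 29 of the 37 members, in 30 promoters. The letters TGACCTTTG, a site of hepatocyte nuclear factor 4 (HNF4), stood in 2 of the 30 (6.67%), against 0.478% of 32851 promoters of all genes. In the lines that follow, each window runs 5′ to 3′ on the gene's own strand, 110 bases before and 20 after the start site, and capitals mark the matched letters on either strand. The windows were picked for holding the letters, and a match describes the sequence and is not evidence of binding.
F7 (HNF4; chr8:13025924-13026053, plus strand): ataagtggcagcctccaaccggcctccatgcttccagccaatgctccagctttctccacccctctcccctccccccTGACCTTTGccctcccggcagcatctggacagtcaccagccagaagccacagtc
F9 (HNF4; chrX:59999354-59999483, plus strand): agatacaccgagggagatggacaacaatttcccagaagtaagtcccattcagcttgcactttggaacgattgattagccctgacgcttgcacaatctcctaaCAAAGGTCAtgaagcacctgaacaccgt
The match began at base -34 in F7 and -8 in F9, counted from the start site. F7 and F9 fell with tunicamycin in knockout and in wild-type livers. The letters TTGCNNCAA of C/EBP stood in 2 of the 30 promoters, those of C6 (from base -186) and Fga (from base -173), which is 6.67% against 2.08% of all. Both fell in knockout livers, and neither was called in wild-type livers (log2 change 0.14 for C6 and -0.33 for Fga). The C/EBP-ATF element TGATGCAA and the unfolded protein response element TGACGTGG were found in 0 of the 30, against 0.895% and 0.676% of all promoters, which says only that these letters are not in these windows. The matches do not overlap in any member promoter.

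With tunicamycin, most complement and coagulation transcripts were lower in livers of either genotype. In knockout livers 24 of the 36 members tested fell and 0 rose, where 14.8% of all loci tested were called lower and 18.1% higher. In wild-type livers 21 of 37 fell and 2 rose, where 19.0% of all loci were called lower and 18.1% higher. An unadjusted p under 0.05 was found for 28 members in knockout livers, against 42.6% of all loci, and for 28 in wild-type livers, against 46.7% of all loci. The median log2 change of the members was -0.90 in knockout and -0.84 in wild-type livers, where the medians of all named loci tested were 0.02 and -0.02. The same 20 members fell in both genotypes. C4b was called lower in wild-type livers alone, C6, F11, Kng1 and Fga in knockout livers alone, and 10 members (Masp2, C3, C8a, C4bp, Vtn, F2, F5, Fgb, Fgg and Plg) were called in neither. Whether the responses differ between genotypes was tested separately and is given after the roles. In whole tissue, fewer cells of a type and less RNA per cell cannot be told apart.

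The complement and coagulation arms had like shares of called members. Of complement, 10 of 16 tested members fell in knockout livers and 10 of 17 in wild-type livers. Of coagulation, 14 of 20 fell in knockout livers and 11 of 20 in wild-type livers. Over all loci tested, 14.8% were called lower in knockout and 19.0% in wild-type livers. The counts by role below are to be read against these shares. Roles of 2 or 3 members are too small for their counts to be told from them. In knockout livers the median log2 change was -0.87 for complement and -0.91 for coagulation, and in wild-type livers -1.03 and -0.71. Summed FPKM weighs the abundant genes. Without C3, the complement members summed to 3021 FPKM with tunicamycin against 5305 with DMSO in knockout livers, which is 56.9%, and to 3292 against 6021 in wild-type livers, which is 54.7%. The coagulation members summed to 7789 FPKM with tunicamycin against 12412 with DMSO in knockout livers (62.7%) and to 11026 against 14758 in wild-type livers (74.7%). The 3 fibrinogen chains, described below, make up much of the coagulation sum. No difference between the arms was tested.

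**Figure D1:**
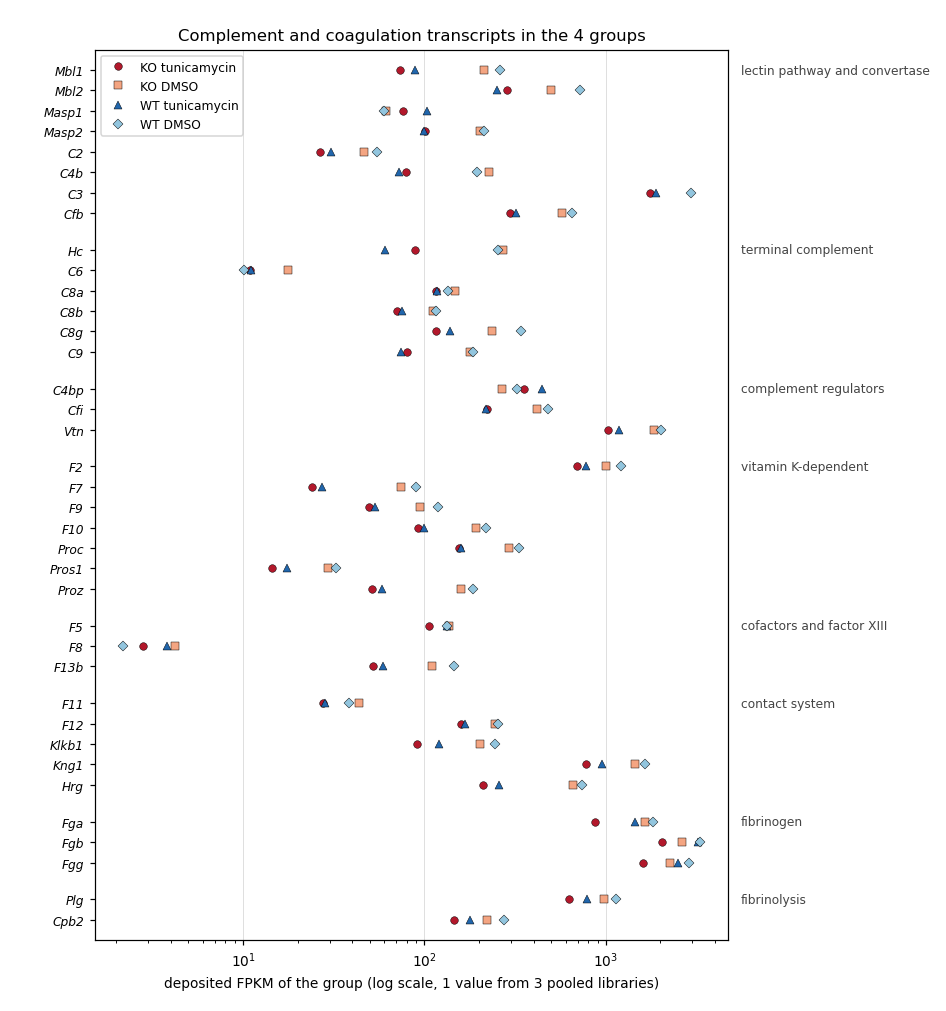
Deposited FPKM of each of the 37 members in the 4 groups on a log scale, ordered by role, with 1 point per group. Points with tunicamycin lie left of those with DMSO for most members, the exceptions being Masp1 and C4bp in both genotypes and C6, F8 and F5 in wild-type livers, and C3 has no point for knockout livers with DMSO.

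The lectin pathway and the C3 convertases begin the complement cascade. In knockout livers 4 of the 7 members tested fell, and in wild-type livers 5 of 8 fell and 1 rose. Mbl1, a mannose-binding lectin that recognises sugars on microbes, stood at 73.1 FPKM with tunicamycin against 212 with DMSO in knockout livers, and at 88.6 FPKM with tunicamycin against 260.3 with DMSO in wild-type livers. The log2 change of Mbl1 in the authors' deposited table was -1.54 (SE 0.30, q = 0.000396) in knockout livers and -1.55 (SE 0.26, q = 0.000396) in wild-type livers. Mbl2, the other mannose-binding lectin, stood at 284 FPKM with tunicamycin against 496 with DMSO in knockout livers, and at 251 FPKM with tunicamycin against 719 with DMSO in wild-type livers. Its log2 change by the authors' deposited table was -0.80 (SE 0.21, q = 0.000747) in knockout livers and -1.52 (SE 0.22, q = 0.000396) in wild-type livers. Both lectins were lower with tunicamycin in each genotype, and the FPKM of Mbl2 over Mbl1 was 3.88 with tunicamycin against 2.34 with DMSO in knockout livers, and 2.83 against 2.76 in wild-type livers.

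Of the proteases that the lectins carry, Masp1 alone passed the test, in wild-type livers. Masp1, which activates its partner protease and whose interval overlaps that of Rtp4, stood at 76.5 FPKM with tunicamycin against 61.8 with DMSO in knockout livers, and at 103 FPKM with tunicamycin against 59.8 with DMSO in wild-type livers. It rose in wild-type livers, at 0.79 (SE 0.24, q = 0.00578), and gave 0.31 (SE 0.23, q = 0.405) in knockout livers, by the authors' deposited table. Masp2, which cleaves C4 and C2, stood at 100.4 FPKM with tunicamycin against 203 with DMSO in knockout livers, and at 99.8 FPKM with tunicamycin against 214 with DMSO in wild-type livers. The values of Masp2 with tunicamycin lay under those with DMSO in both genotypes, but the test in the authors' deposited table gave -1.01 (SE 0.45, q = 0.0782) in knockout livers and -1.10 (SE 0.45, q = 0.0569) in wild-type livers. Its interval overlaps that of Tardbp, an RNA-binding protein gene.

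Of the convertase proteins, C2, C4b and Cfb fell in wild-type livers, and C2 and Cfb in knockout livers too. C2, the protease part of the classical and lectin C3 convertase, stood at 26.6 FPKM with tunicamycin against 46.7 with DMSO in knockout livers, and at 30.5 FPKM with tunicamycin against 54.7 with DMSO in wild-type livers, with log2 changes of -0.81 in knockout and -0.84 in wild-type livers in the authors' deposited table. C4b, the non-protease part, shares a merged locus with its near-identical copy C4a, so the counting cannot separate them. That locus stood at 79.5 FPKM with tunicamycin against 228 with DMSO in knockout livers, and at 72.7 FPKM with tunicamycin against 196 with DMSO in wild-type livers. The authors' deposited table gave -1.52 (SE 0.62, q = 0.104) in knockout livers and -1.43 (SE 0.24, q = 0.000396) in wild-type livers, so a log2 change of about the same size passed the test in wild-type livers and not in knockout livers, where its SE was larger. The interval also overlaps Cyp21a1, an adrenal steroid enzyme gene, which stood at 175 FPKM in knockout livers with tunicamycin, 4.80 in knockout livers with DMSO, 0.781 in wild-type livers with tunicamycin and 3.35 in wild-type livers with DMSO, and its part in the C4b value was not tested. Cfb, the protease of the alternative pathway convertase, stood at 296 FPKM with tunicamycin against 573 with DMSO in knockout livers, and at 319 FPKM with tunicamycin against 652 with DMSO in wild-type livers, with log2 changes of -0.95 in knockout and -1.03 in wild-type livers in the authors' deposited table, both called. C3, the protein all pathways cleave, stood at 1749.7 FPKM in knockout and 1898 in wild-type livers with tunicamycin and at 2961 in wild-type livers with DMSO. In knockout livers with DMSO it is listed at 0 because the locus was marked as holding too many fragments to be quantified, so it has no value there. In wild-type livers its log2 change of -0.64 (SE 0.79, q = 0.714), by the authors' deposited table, did not pass the test.

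The terminal components form the membrane attack complex, and 5 of the 6 fell in knockout livers and 4 of 6 in wild-type livers. Hc, the mouse gene of C5, which starts the complex when cleaved, stood at 88.3 FPKM with tunicamycin against 269.8 with DMSO in knockout livers, and at 60.8 FPKM with tunicamycin against 253 with DMSO in wild-type livers. Its log2 change, by the authors' deposited table, was -1.61 (SE 0.29, q = 0.000396) in knockout livers and -2.06 (SE 0.27, q = 0.000396) in wild-type livers, the lowest of all members in wild-type livers. C9, which polymerises into the pore, stood at 80.0 FPKM with tunicamycin against 177 with DMSO in knockout livers, and at 74.0 FPKM with tunicamycin against 184 with DMSO in wild-type livers, and the authors' deposited table gave -1.15 (SE 0.21, q = 0.000396) in knockout livers and -1.32 (SE 0.21, q = 0.000396) in wild-type livers. C6, which binds cleaved C5, stood at 10.9 FPKM with tunicamycin against 17.7 with DMSO in knockout livers, and at 11.1 FPKM with tunicamycin against 10.1 with DMSO in wild-type livers. The DMSO value of knockout livers was the high one of the 4, and the other 3 lay close together. In the authors' deposited table the log2 change of C6 with tunicamycin was -0.70 (SE 0.20, q = 0.00449) in knockout livers and 0.14 (SE 0.21, q = 0.726) in wild-type livers.

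The 3 chains of C8 are encoded by separate genes, of which C8b and C8g fell. C8a stood at 116 FPKM with tunicamycin against 147 with DMSO in knockout livers, and at 118 FPKM with tunicamycin against 135 with DMSO in wild-type livers, and its log2 changes of -0.34 in knockout and -0.20 in wild-type livers passed the test in neither genotype of the authors' deposited table. C8b stood at 70.3 FPKM with tunicamycin against 111 with DMSO in knockout livers, and at 75.1 FPKM with tunicamycin against 116 with DMSO in wild-type livers, and its log2 changes of -0.66 in knockout and -0.63 in wild-type livers were both called in the authors' deposited table. C8g, whose product belongs to the lipocalin family, stood at 116 FPKM with tunicamycin against 237 with DMSO in knockout livers, and at 138 FPKM with tunicamycin against 339 with DMSO in wild-type livers, and its log2 changes of -1.03 in knockout and -1.30 in wild-type livers were likewise both called in the authors' deposited table. FPKM of C8a over C8g was 0.998 with tunicamycin against 0.619 with DMSO in knockout livers, and 0.856 against 0.400 in wild-type livers. The difference between chains was not tested.

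Among the complement regulators, 1 of 3 fell in each genotype. Cfi, the protease that inactivates C3b and C4b, stood at 222 FPKM with tunicamycin against 417 with DMSO in knockout livers, and at 219.7 FPKM with tunicamycin against 478 with DMSO in wild-type livers. The authors' deposited table gave for Cfi -0.91 (SE 0.22, q = 0.000396) in knockout livers and -1.12 (SE 0.23, q = 0.000396) in wild-type livers. Vtn, vitronectin, which blocks insertion of the terminal complex and binds cells, stood at 1027 FPKM with tunicamycin against 1841 with DMSO in knockout livers, and at 1189 FPKM with tunicamycin against 2023 with DMSO in wild-type livers, and the test in the authors' deposited table gave -0.84 (SE 0.38, q = 0.089) in knockout livers and -0.77 (SE 0.35, q = 0.0851) in wild-type livers. C4bp, a cofactor of Cfi that binds C4b, stood at 354 FPKM with tunicamycin against 268 with DMSO in knockout livers, and at 442 FPKM with tunicamycin against 326 with DMSO in wild-type livers. Its values with tunicamycin were above those with DMSO in both genotypes, and the authors' deposited table gave 0.40 (SE 0.29, q = 0.351) in knockout livers and 0.44 (SE 0.29, q = 0.299) in wild-type livers, so this locus passed the test in neither. A second locus of that name in the same interval stood at 15.6 FPKM with tunicamycin against 8.02 with DMSO in knockout livers, and at 21.9 against 6.60 in wild-type livers, so reads may be split between both. That locus was called higher in wild-type livers, with a log2 change of 1.73 (q = 0.0299) in the authors' deposited table.

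**Figure D2:**
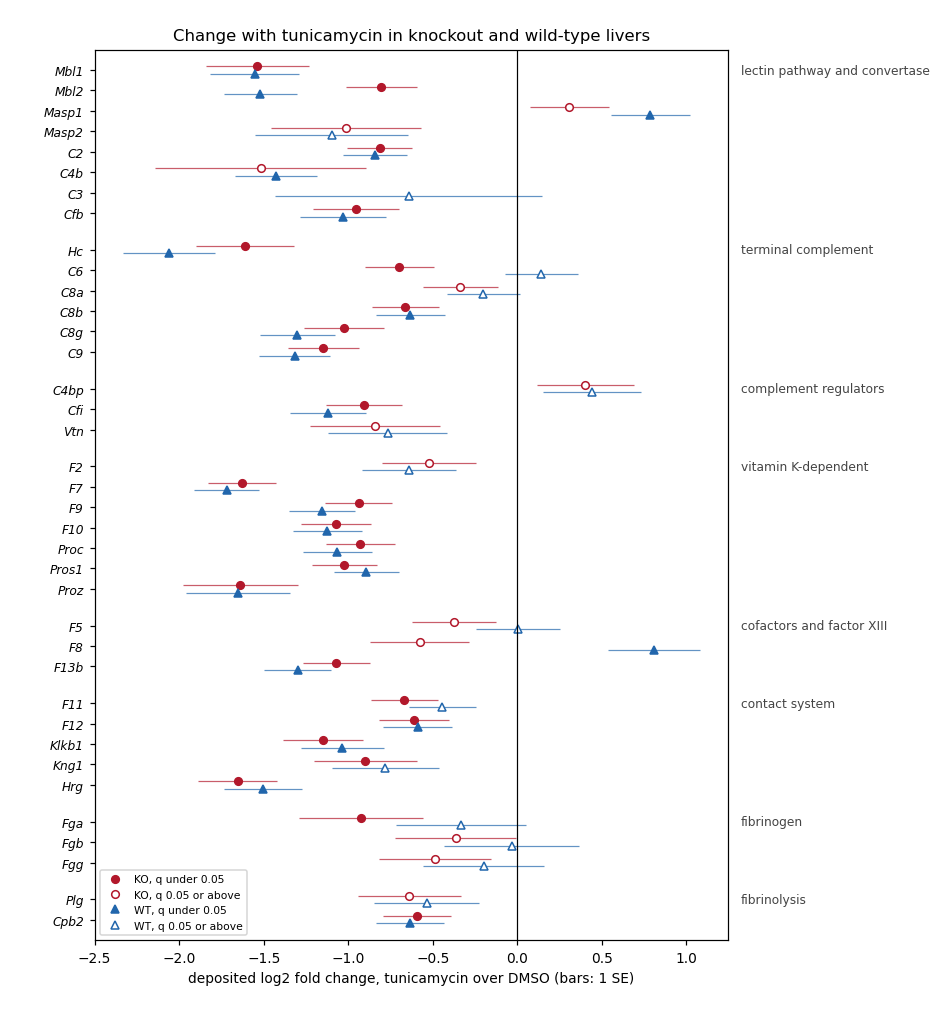
Deposited log2 fold change of each member, tunicamycin over DMSO, in knockout livers (circles, upper) and wild-type livers (triangles, lower), with bars of 1 SE and filled symbols for q under 0.05. Filled symbols lie left of 0 for all but Masp1 and F8 in wild-type livers. The knockout and wild-type symbols of F8, C6 and F5 lie on opposite sides of 0, with F5 at 0.003 in wild-type livers.

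The vitamin K-dependent proteins are proteases and cofactors that bind membranes through carboxylated residues, and 6 of 7 fell in each genotype. F7, the protease that tissue factor engages to start clotting, stood at 23.9 FPKM with tunicamycin against 73.9 with DMSO in knockout livers, and at 27.4 FPKM with tunicamycin against 90.1 with DMSO in wild-type livers. Its log2 change in the authors' deposited table was -1.63 (SE 0.20, q = 0.000396) in knockout livers and -1.72 (SE 0.19, q = 0.000396) in wild-type livers. Proz, protein Z, a cofactor in the inhibition of factor Xa, stood at 51.3 FPKM with tunicamycin against 159.8 with DMSO in knockout livers, and at 58.6 FPKM with tunicamycin against 184 with DMSO in wild-type livers. The authors' deposited table gave for Proz -1.64 (SE 0.34, q = 0.000396) in knockout livers and -1.65 (SE 0.31, q = 0.000396) in wild-type livers, and its interval overlaps Cul4a and Pcid2.

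Of the other clotting proteases of this group, F9 and F10 fell in both genotypes and F2 was not called. F9, factor IX, the protein missing in haemophilia B, stood at 49.5 FPKM with tunicamycin against 94.8 with DMSO in knockout livers, and at 53.6 FPKM with tunicamycin against 119 with DMSO in wild-type livers, with log2 changes of -0.94 in knockout and -1.16 in wild-type livers in the authors' deposited table. F10, factor X, which makes thrombin from prothrombin, stood at 91.8 FPKM with tunicamycin against 193 with DMSO in knockout livers, and at 100.1 FPKM with tunicamycin against 218 with DMSO in wild-type livers, with -1.07 in knockout and -1.12 in wild-type livers in the authors' deposited table. F2, prothrombin itself, was the most abundant of the group at 693 FPKM with tunicamycin against 997 with DMSO in knockout livers, and at 777 FPKM with tunicamycin against 1211 with DMSO in wild-type livers. It was the 1 vitamin K-dependent member not called, with -0.53 (SE 0.28, q = 0.168) in knockout livers and -0.64 (SE 0.28, q = 0.0817) in wild-type livers in the authors' deposited table. The anticoagulant proteins of the group fell alongside. Proc, protein C, which inactivates factors Va and VIIIa, stood at 155 FPKM with tunicamycin against 294 with DMSO in knockout livers, and at 159 FPKM with tunicamycin against 332 with DMSO in wild-type livers, with log2 changes of -0.93 in knockout and -1.06 in wild-type livers in the authors' deposited table. Pros1, its cofactor protein S, stood at 14.5 FPKM with tunicamycin against 29.5 with DMSO in knockout livers, and at 17.4 FPKM with tunicamycin against 32.4 with DMSO in wild-type livers, with -1.02 in knockout and -0.89 in wild-type livers in the authors' deposited table.

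Of the cofactors and factor XIII, 1 of 3 fell in each genotype and 1 rose in wild-type livers. F13b, the carrier subunit of the fibrin-crosslinking factor XIII, stood at 52.1 FPKM with tunicamycin against 109.5 with DMSO in knockout livers, and at 59.1 FPKM with tunicamycin against 145 with DMSO in wild-type livers, and the authors' deposited table gave -1.07 (SE 0.20, q = 0.000396) in knockout livers and -1.30 (SE 0.20, q = 0.000396) in wild-type livers. F5, the cofactor of factor Xa, stood at 106 FPKM with tunicamycin against 138 with DMSO in knockout livers, and at 134 FPKM with tunicamycin against 134 with DMSO in wild-type livers, with log2 changes of -0.38 in knockout and 0.00 in wild-type livers in the authors' deposited table, neither called. F8, the cofactor of factor IXa and the protein missing in haemophilia A, was the least abundant member at 2.81 FPKM with tunicamycin against 4.19 with DMSO in knockout livers, and at 3.83 FPKM with tunicamycin against 2.19 with DMSO in wild-type livers. In wild-type livers F8 rose with tunicamycin, and in knockout livers the value with tunicamycin lay under that with DMSO without passing the test (-0.58 (SE 0.29, q = 0.158) in knockout livers and 0.81 (SE 0.27, q = 0.024) in wild-type livers, by the authors' deposited table). The interval of F8 overlaps Fundc2, a gene of a mitochondrial membrane protein, which stood at 13.7 FPKM with tunicamycin against 6.63 with DMSO in knockout livers, and at 13.1 against 9.23 in wild-type livers, and its part in the F8 values was not tested. F5 and F8 have 26 sequons each, the most of any member.

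The contact system starts clotting on charged surfaces and releases the peptide bradykinin, and Hrg was counted with it here. Of the group so listed, all 5 members fell in knockout livers and 3 of 5 in wild-type livers. Hrg, histidine-rich glycoprotein, which binds heparin and plasminogen, stood at 209.9 FPKM with tunicamycin against 661 with DMSO in knockout livers, and at 259 FPKM with tunicamycin against 736 with DMSO in wild-type livers. The authors' deposited table gave for Hrg -1.65 (SE 0.23, q = 0.000396) in knockout livers and -1.51 (SE 0.23, q = 0.000396) in wild-type livers. Klkb1, plasma prekallikrein, shares a merged locus with the cytochrome P450 gene Cyp4v3 and stood at 91.4 FPKM with tunicamycin against 203 with DMSO in knockout livers, and at 120.0 FPKM with tunicamycin against 246 with DMSO in wild-type livers, and for that locus the authors' deposited table gave -1.15 (SE 0.24, q = 0.000396) in knockout livers and -1.04 (SE 0.24, q = 0.000396) in wild-type livers. Kng1, kininogen, the source of bradykinin, stood at 779.8 FPKM with tunicamycin against 1453 with DMSO in knockout livers, and at 952 FPKM with tunicamycin against 1637 with DMSO in wild-type livers, with -0.90 (SE 0.31, q = 0.0149) in knockout livers and -0.78 (SE 0.32, q = 0.0566) in wild-type livers in the authors' deposited table. F11, factor XI, stood at 27.6 FPKM with tunicamycin against 43.8 with DMSO in knockout livers, and at 28.1 FPKM with tunicamycin against 38.3 with DMSO in wild-type livers, with -0.67 (SE 0.20, q = 0.00476) in knockout livers and -0.44 (SE 0.20, q = 0.0891) in wild-type livers in the authors' deposited table. Kng1 and F11 thus had lower deposited values with tunicamycin in both genotypes and were called in knockout livers alone. F12, factor XII, stood at 160.0 FPKM with tunicamycin against 245 with DMSO in knockout livers, and at 168 FPKM with tunicamycin against 253 with DMSO in wild-type livers, with log2 changes of -0.61 in knockout and -0.59 in wild-type livers in the authors' deposited table, both called.

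The fibrinogen chains, which together form the clot's substrate, were among the most abundant members. Fga, the alpha chain, stood at 868 FPKM with tunicamycin against 1651 with DMSO in knockout livers, and at 1445 FPKM with tunicamycin against 1819 with DMSO in wild-type livers. Fgb, the beta chain, stood at 2034 FPKM with tunicamycin against 2619 with DMSO in knockout livers, and at 3212 FPKM with tunicamycin against 3289 with DMSO in wild-type livers. Fgg, the gamma chain, stood at 1604 FPKM with tunicamycin against 2245 with DMSO in knockout livers, and at 2491 FPKM with tunicamycin against 2857 with DMSO in wild-type livers. For all 3 chains the knockout livers with tunicamycin were the low group of the 4. The test in the authors' deposited table called Fga lower in knockout livers, at -0.93 (SE 0.37, q = 0.0472) in knockout livers and -0.33 (SE 0.39, q = 0.617) in wild-type livers. For Fgg the authors' deposited table gave -0.49 (SE 0.33, q = 0.312) in knockout livers and -0.20 (SE 0.36, q = 0.78) in wild-type livers, and for Fgb log2 changes of -0.36 in knockout and -0.03 in wild-type livers, and neither was called. FPKM of Fga over Fgb was 0.427 with tunicamycin against 0.630 with DMSO in knockout livers, and 0.450 against 0.553 in wild-type livers.

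Of the fibrinolysis pair, Cpb2 fell in both genotypes. Cpb2, the carboxypeptidase that slows clot lysis, stood at 146 FPKM with tunicamycin against 221 with DMSO in knockout livers, and at 178 FPKM with tunicamycin against 276 with DMSO in wild-type livers, and the authors' deposited table gave -0.59 (SE 0.20, q = 0.0132) in knockout livers and -0.64 (SE 0.20, q = 0.00914) in wild-type livers. Plg, plasminogen, the precursor of plasmin, stood at 628 FPKM with tunicamycin against 978 with DMSO in knockout livers, and at 785 FPKM with tunicamycin against 1138 with DMSO in wild-type livers, and the authors' deposited table gave -0.64 (SE 0.31, q = 0.117) in knockout livers and -0.54 (SE 0.31, q = 0.228) in wild-type livers. Abundant members had wider errors: the 9 members at 500 FPKM or more in knockout livers with DMSO had a median SE of 0.307 for the log2 change in knockout livers, against 0.211 for the other 27. In wild-type livers the 11 at 500 FPKM or more with DMSO had a median SE of 0.317, against 0.216 for the other 26, and 3 of the 11 were called lower against 18 of the 26. Wider errors at high level were not particular to the members. All named loci tested at 500 FPKM or more with DMSO had a median SE of 0.272 in each genotype. Those from 10 to under 500 FPKM had 0.210 in knockout and 0.209 in wild-type livers. The median log2 change of the abundant members was smaller in size at this cut, slightly so in knockout livers (-0.84 against -0.93 for the others). In wild-type livers it was -0.64 against -1.05. Level and change were hardly related across all 37 members in wild-type livers. There FPKM with DMSO and log2 change had a Spearman rho of -0.05, as a description. Of the members called in neither genotype, F2, Plg, Vtn, Fgb and Fgg are among the abundant ones, and Masp2, C8a, C4bp and F5 are not.

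Neighbouring members on a chromosome can be set side by side, with positions in mm9 as in the table. F7, F10 and Proz follow each other on chromosome 8 between 13026034 and 13147939, and all 3 fell in both genotypes. Fgg, Fga and Fgb lie together on chromosome 3 between 82811594 and 82853712, and 1 of the 3 was called, in knockout livers. C2 and Cfb lie together on chromosome 17 between 34993319 and 35019045, and both fell in both genotypes. C8b and C8a are neighbours on chromosome 4 between 104438922 and 104549106, where C8b fell in both genotypes and C8a was called in neither.

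Without tunicamycin, knockout and wild-type livers differed at C6 and F8, in a comparison where genotype and lane cannot be told apart. Of 36 members tested, 2 were higher and 0 lower in knockout livers with DMSO, where 1.39% of all loci tested were called higher and 1.47% lower. An unadjusted p under 0.05 was found for 5 members, against 7.13% of all loci. The median log2 difference of the members was -0.17, and that of all named loci tested was -0.07. C6 stood at 17.7 FPKM in knockout and 10.1 in wild-type livers with DMSO, a log2 difference of 0.81 (SE 0.20, q = 0.00108) in the authors' deposited table. F8 stood at 4.19 FPKM in knockout and 2.19 in wild-type livers with DMSO, a log2 difference of 0.94 (SE 0.28, q = 0.00749) in the authors' deposited table. With q computed within this comparison alone C6 stayed called and F8 did not (q = 0.131). C6 and F8 were the 2 members of lowest FPKM in wild-type livers with DMSO, and at F8 both levels were under 5 FPKM. Mbl2 (-0.54 (SE 0.22, q = 0.0674)) and C8g (-0.52 (SE 0.22, q = 0.0755)) had the lowest log2 differences in the authors' deposited table and were not called.

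With tunicamycin, Cuffdiff called 0 of 37 members between knockout and wild-type livers, where 5.92% of all loci tested were called in either direction. An unadjusted p under 0.05 was found for 2 members, against 10.4% of all loci. The median log2 difference was -0.19, against -0.03 for all named loci tested. Fga had the lowest difference, -0.73 (SE 0.35, q = 0.102), and Hc the highest, 0.54 (SE 0.24, q = 0.0951), in the authors' deposited table. All 20 coagulation members had a difference below 0, though Proc, F11 and F12 were above 0 after upper quartile scaling, and so did 11 of 17 complement members. A difference that misses the threshold is not shown to be absent: with a median SE of 0.23 on the log2 scale, small differences could not be told from 0.

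**Figure D3:**
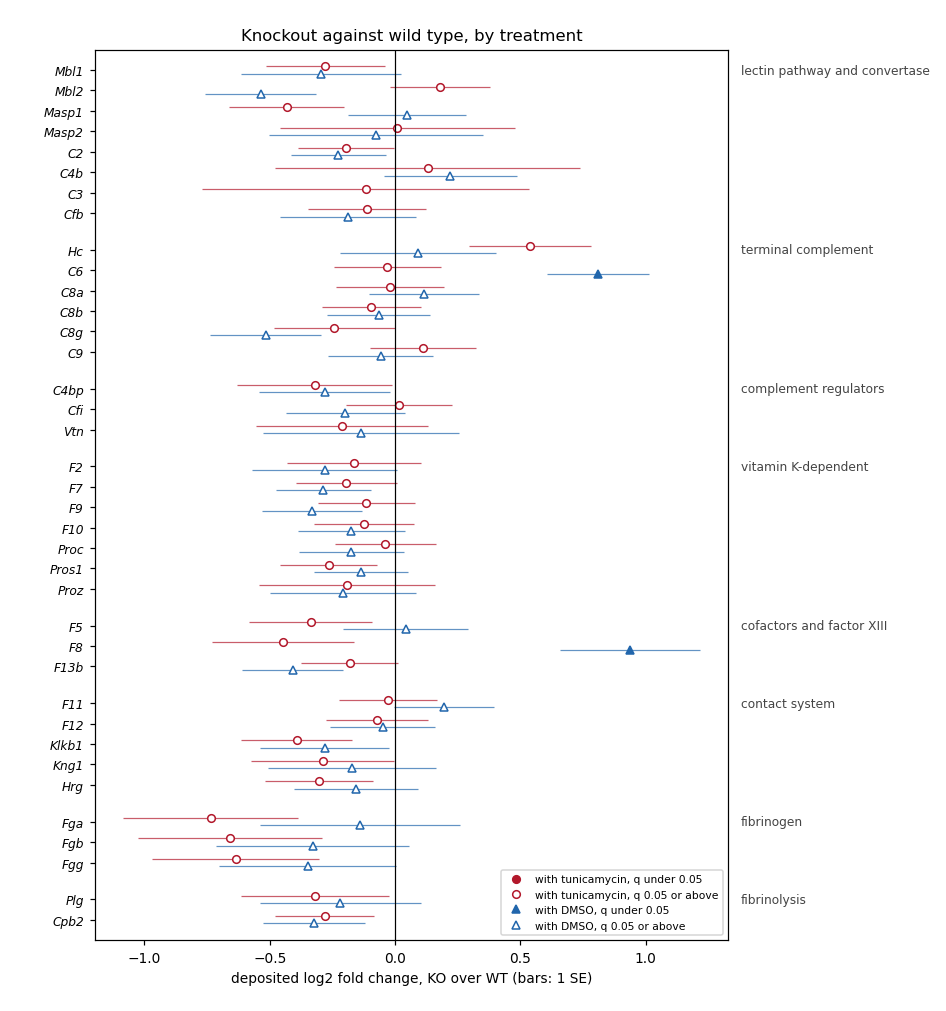
Deposited log2 fold change of each member, knockout over wild type, with tunicamycin (circles, upper) and with DMSO (triangles, lower), with bars of 1 SE and filled symbols for q under 0.05. The only filled symbols are C6 and F8 with DMSO, and with tunicamycin the lowest values, with open symbols, are those of the fibrinogen chains (Fga -0.73, Fgb -0.66 and Fgg -0.64).

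The tunicamycin responses of the genotypes were set against each other member by member. Across the 36 members with both values, the log2 change in knockout livers and that in wild-type livers had a Pearson r of 0.870 and a Spearman rho of 0.881, given as a description over members that share libraries. The difference between the responses (knockout minus wild type), tested per locus from the deposited fold changes and their SE with Benjamini-Hochberg adjustment over 14510 loci, passed an adjusted p of 0.05 for 0 of 36 members, where 1.01% of all loci passed. An unadjusted p under 0.05 was found for 3 members (C6, Mbl2, F8), against 5.26% of all loci. From the authors' fold changes, the difference of largest size was at F8, -1.38 (SE 0.40, adjusted p = 0.052). By the same computation from the authors' fold changes C6 gave -0.84 (SE 0.30, adjusted p = 0.234), and Mbl2, with the highest value above 0, gave 0.72 (SE 0.30, adjusted p = 0.541). When responses were centred on the median of all loci, F8 passed the threshold. The calls made in 1 genotype alone, C4b, C6, F11, Kng1 and Fga among the falls and Masp1 and F8 among the rises, are otherwise not shown to differ between genotypes. Knockout minus wild type was below 0 for 19 members and above 0 for 17. The difference between responses draws on the knockout livers with DMSO, the only ones in lane 5, so lane cannot be told apart from it.

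F8 is the member made mainly by endothelial cells of the liver, and markers of these cells differed between groups as well. The 12 markers of sinusoidal endothelium summed to 143 FPKM in knockout livers with tunicamycin, 245 in knockout livers with DMSO, 199 in wild-type livers with tunicamycin and 159.7 in wild-type livers with DMSO. The order of the sums, highest in knockout livers with DMSO and then in wild-type livers with tunicamycin, is that of F8 for these groups, while for the lower pair the order is turned round: F8 stood at 2.81 FPKM in knockout livers with tunicamycin and 2.19 in wild-type livers with DMSO. With DMSO, 9 of the 12 markers were higher in knockout than in wild-type livers, where 1.39% of all loci tested were called higher. This was not confined to endothelium. In the same comparison 4 of 10 stellate cell and fibroblast markers and 1 of 12 Kupffer cell and macrophage markers were higher. With tunicamycin, 7 of the 12 endothelial markers were lower than with DMSO in knockout livers (14.8% of all loci). In wild-type livers 3 of 12 were higher (18.1% of all loci). Between genotypes with tunicamycin, 3 of 12 were lower in knockout livers, where 5.92% of all loci were called in either direction. The difference between responses passed for Stab1, Stab2, Kdr, Cdh5, Lyve1, Clec4g and Dnase1l3 and not for the other endothelial markers, where 1.01% of all loci passed. It was not confined to endothelium either. It passed below 0 for the stellate cell and fibroblast markers Acta2 (-2.07) and Reln (-1.02) and the macrophage marker Cd163 (-1.16). For the stellate cell and fibroblast marker Des it passed above 0 (1.75). None of the 12 endothelial markers was at 0 in any group. Their part in the F8 and C6 results was not tested.

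**Figure D4:**
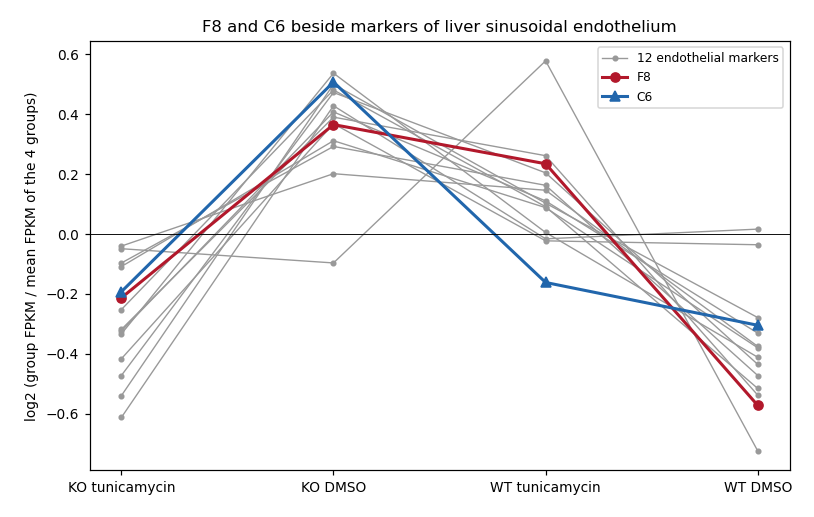
FPKM of F8, C6 and 12 markers of liver sinusoidal endothelium in each group, as the log2 ratio to the gene's own mean over the 4 groups, with lines that join the groups of 1 gene. F8 and C6 are highest in knockout livers with DMSO, as are 11 of the 12 markers, and F8 and C6 are lowest in wild-type livers with DMSO.

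Sequons were counted in the protein of each member, translated from the GENCODE coding sequences of GRCm38. Members had a median of 4 sequons, and 97.3% had at least 1, against a median of 2 and 78.2% over 21558 mouse proteins. Per 100 residues the median was 0.568 in members and 0.446 over all proteins, and the median length was 597 against 391 residues. The sequon number was not particular to the members. The 24 other plasma glycoproteins of hepatocytes counted below had a median of 4 sequons and 0.786 per 100 residues, and 100% had at least 1. Mbl1 was the 1 member with 0 sequons, and it fell in both genotypes. The 20 members with 4 or more sequons had a median log2 change of -0.87 in knockout and -0.81 in wild-type livers, with 12 and 11 called lower. Those with 1 to 3 had a median of -0.93 over 15 members in knockout livers and -0.77 over 16 in wild-type livers, with 11 and 9 called lower. Spearman's rho between sequon number and log2 change across members was 0.0695 in knockout livers (36 members) and 0.0764 in wild-type livers (37 members), as a description.

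**Figure D5:**
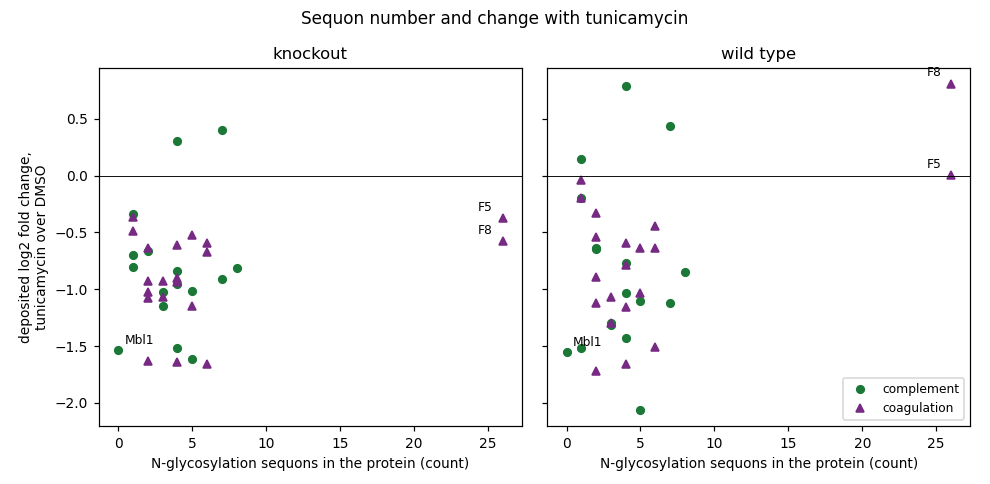
Deposited log2 fold change with tunicamycin against the number of N-glycosylation sequons of the protein, for knockout livers (left) and wild-type livers (right), with 1 point per member. F5 and F8, with 26 sequons each, lie far to the right, and Masp1 and C4bp, with 4 or more sequons, lie above 0 in both panels.

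Plasma proteins outside the list and genes that serve them were counted in the same way, and the counts are to be read against the calls over all loci, 14.8% lower and 18.1% higher with tunicamycin in knockout livers and 19.0% lower and 18.1% higher in wild-type livers. Of other complement genes, 13 of 30 tested fell and 1 rose in knockout livers, and 11 of 29 fell and 1 rose in wild-type livers. Among those lower in both were C1rb, a protease of the C1 complex, at -1.32 in knockout and -1.33 in wild-type livers, the related C1rl at -1.57 in knockout and -1.69 in wild-type livers, and Cpn2, a subunit of the anaphylatoxin-inactivating carboxypeptidase N, at -1.59 in knockout and -1.56 in wild-type livers, on the log2 scale of the authors' deposited table. The 1 that rose in knockout livers was Cfd, factor D of the alternative pathway and a product of fat, at 84.3 FPKM with tunicamycin against 2.75 with DMSO in knockout livers, and at 0.274 against 0.182 in wild-type livers. The 7 fat markers, Cfd among them, summed to 121 FPKM with tunicamycin against 3.82 with DMSO in knockout livers, and to 0.436 against 0.395 in wild-type livers. Of other coagulation and fibrinolysis genes, 7 of 27 fell and 6 rose in knockout livers, and 7 of 24 fell and 4 rose in wild-type livers. Among those that rose in knockout livers, F13a1, Plat and A2m stood there at only 0.477, 1.06 and 0.560 FPKM with tunicamycin. They were not tested in wild-type livers, and the part of RNA of other tissues in their values was not tested. Serpind1, heparin cofactor II, fell at -1.45 in knockout and -1.63 in wild-type livers, and Anxa2 and S100a10, whose products bind plasminogen together at the cell surface, rose at 2.59 in knockout and 2.10 in wild-type livers and at 2.08 in knockout and 1.65 in wild-type livers, on the log2 scale of the authors' deposited table.

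Plasma proteins of hepatocytes with and without N-glycans were counted apart. Of 22 other plasma glycoprotein genes tested, 12 fell and 1 rose in knockout livers, and 10 fell and 1 rose in wild-type livers. Hp, haptoglobin, fell at -1.65 in knockout and -1.75 in wild-type livers on the log2 scale of the authors' deposited table, and the 1 that rose was Serpina7, thyroxine-binding globulin, at 70.3 FPKM with tunicamycin against 8.79 with DMSO in knockout livers and 81.8 with tunicamycin against 12.5 with DMSO in wild-type livers. Of 9 genes of plasma proteins without N-glycans, 5 fell and 1 rose in each genotype. Apoc3, an apolipoprotein, fell at -1.41 in knockout and -1.75 in wild-type livers, and Igfbp1, which binds insulin-like growth factors, rose at 3.51 in knockout and 4.25 in wild-type livers, on the log2 scale of the authors' deposited table.

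Genes that serve these proteins in the ER were counted by 3 lists. All 9 tested genes of the list for glycoprotein transport and quality control rose in both genotypes. Lman1 and Mcfd2 encode the cargo receptor that carries factors V and VIII out of the ER. Lman1 stood at 183 FPKM with tunicamycin against 94.3 with DMSO in knockout livers and 227 with tunicamycin against 106 with DMSO in wild-type livers, and Mcfd2 at 353 FPKM with tunicamycin against 125 with DMSO in knockout livers and 472 with tunicamycin against 166 with DMSO in wild-type livers. Of 37 N-glycosylation genes, 16 rose and 0 fell in knockout livers, and 17 rose and 2 fell in wild-type livers. Alg12, a mannosyltransferase, rose at 3.94 in knockout and 4.16 in wild-type livers, and Dpagt1, the target of tunicamycin, at 1.09 in knockout and 1.34 in wild-type livers, on the log2 scale of the authors' deposited table. Of 7 genes of the vitamin K cycle, 3 rose and 1 fell in knockout livers, and 3 rose and 2 fell in wild-type livers. Ggcx, the carboxylase that modifies the vitamin K-dependent factors, passed the test in neither genotype, at -0.03 in knockout and 0.19 in wild-type livers in the authors' deposited table.

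Of 14 genes of hepatocyte transcription factors, 5 fell and 2 rose in knockout livers, and 4 fell and 3 rose in wild-type livers, where 14.8% of all loci were called lower and 18.1% higher in knockout livers, and 19.0% lower and 18.1% higher in wild-type livers. Cebpa, which encodes a C/EBP factor, stood at 40.7 FPKM with tunicamycin against 145 with DMSO in knockout livers and 35.1 with tunicamycin against 206 with DMSO in wild-type livers. Foxa2 stood at 3.75 FPKM with tunicamycin against 18.3 with DMSO in knockout livers and 3.72 with tunicamycin against 17.4 with DMSO in wild-type livers, and Onecut1 at 1.97 FPKM with tunicamycin against 38.4 with DMSO in knockout livers and 1.75 with tunicamycin against 19.0 with DMSO in wild-type livers. These 3 were lower with tunicamycin in both genotypes. Of the genes that rose, Rora, which encodes a nuclear receptor, had the largest change, at 1.88 in knockout and 2.31 in wild-type livers on the log2 scale of the authors' deposited table. Hnf4a was called lower with tunicamycin in knockout livers alone, at -0.72 in knockout and -0.17 in wild-type livers in the authors' deposited table. The difference between these responses did not pass the test (adjusted p of 1), while with tunicamycin Hnf4a was lower in knockout than in wild-type livers, at -0.63 (q = 0.0339) in the authors' deposited table. Of the 10 hepatocyte markers tested, 5 fell in knockout and 3 in wild-type livers and 0 rose.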

How the data were processed

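Poly(A) RNA was sequenced from 12 liver libraries in 4 groups of 3. The submitters' processing notes name bcl2fastq, TopHat2 2.0.4 with mouse build mm9, Cufflinks and Cuffdiff. The annotation used and how libraries were scaled to each other: not given in the sources used here. Per the file headers, the authors deposited 1 FPKM per locus and group, and, per comparison (6 in all), the log2 fold change with its test score, p-value and q-value. The deposited q-values match Benjamini-Hochberg adjustment of 90828 p-values, those of all comparisons at once (largest difference 5.29e-07), and the smallest is 0.000396. The 4 comparisons that change genotype or treatment alone were used.

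The authors' own test was kept, since no values per library were used here. SEs are the size of the fold change over the scaled test statistic, with a scale of 1.73 to 1.74 that makes the deposited p-values between 0.001 and 0.5 normal. The test of the difference between responses was run on simulated data with normal noise of the same SEs that the test assumes. That checks the computation and cannot show whether the derived SEs are right. At some loci they are at odds with the deposited test. The adrenal marker Star had a log2 change of 8.50 with tunicamycin in knockout livers, with a derived SE of 0.69 but a deposited q of 0.222. Its difference between responses had an adjusted p of 5.37e-16 in this test, so the loci that passed include such cases. Where several loci carried a symbol, the most abundant one with no other name was read, and all 37 members had a locus. Positions are those of the table, counted from 1. Sequons were counted in proteins translated from GENCODE vM21, because the protein table named in the plan was not used here.

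The members and lists were chosen with earlier results of these data known. Every member was to be named with its FPKM, the 2 with the largest log2 change in wild-type livers of each role and those called in a genotype comparison with full statistics, and of each other list called genes with the largest change. Lman1, Mcfd2, Dpagt1, Ggcx and Hnf4a were named for their role after their values were seen. One gene of the planned lists and the motif that goes with it are not reported here. An extra column without a label was not used. Alternatives were other q rules, a fold minimum, other scalings, an FPKM minimum, single-name loci and a pseudocount of 1. Software was pandas 2.3.3, scipy 1.17.1, numpy 2.4.6 and matplotlib 3.10.9 under Python 3.11.15.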

Additional observations from a re-analysis of the deposited data

How the results depend on the processing

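Under the alternatives run, no called member changed direction. The count of members higher in wild-type livers with tunicamycin, 2 as reported, was 1 at q under 0.01 and 0 when a 2-fold change was also asked. The count lower in knockout livers with tunicamycin, 24 as reported, was 11 with at least a 2-fold change. The count higher in knockout livers with DMSO, 2 as reported, was 1 with q computed within that comparison and 0 with at least a 2-fold change. The 0 members whose responses differed between genotypes became 1, F8, when responses were centred on the median of all loci. With q computed within the comparison, Masp2 and Kng1 also passed in wild-type livers with tunicamycin, where 23 were then lower. Scaling to the upper quartile subtracts the groups' log2 ratio of upper quartiles, 0.125 for tunicamycin over DMSO in knockout livers and -0.156 for knockout over wild type with DMSO, and so takes the members' median in that genotype comparison to -0.02. Member values that were not called changed sign 14 times with upper quartile scaling and 8 times with centring. The other counts and the medians kept their direction and stayed within their limits. The cause of these changes was not tested. No library could be left out, and pooled values do not show whether 1 library carries a group. No paired analysis was possible because the table holds 1 value per group and no label pairs libraries across groups.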
